A study of Mus musculus with 6 samples.

Results

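Matrix metalloproteases are zinc-dependent endopeptidases that cut collagens, laminins, fibronectin and other proteins outside the cell. Most are made as inactive proenzymes that are opened by other proteases, and the tissue inhibitors of metalloproteases (TIMPs) block the active enzymes. In carcinomas they are known for breaking down basement membrane and for releasing growth factors and cytokines, and glucocorticoids are known to repress several of them, in part through interference with the transcription factor AP-1. The 9 genes described here, Mmp2, Mmp3, Mmp9, Mmp10, Mmp11, Mmp13, Mmp14, Mmp15 and Mmp19, were found by gene name in a table of 28154 genes, and all 9 were in it.

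RNA sequencing was done on the mouse mammary carcinoma line 4T1, which grows and spreads in syngeneic mice. The groups are 3 libraries of 4T1 cells treated with corticosterone, the main glucocorticoid of rodents, and 3 libraries of control 4T1 cells. The labels state no dose, time, vehicle or passage. They also leave unsaid if each replicate was its own culture. A p-value here therefore only sets the group difference against the scatter of these 6 samples within their groups, which may be technical. A single tumour line is a limited model, since in a tumour host fibroblasts, macrophages and neutrophils also make these enzymes.

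The libraries held 62175495 to 66249288 counts with corticosterone and 63398404 to 65915866 counts in controls. Per1 and Tsc22d3, textbook targets of the glucocorticoid receptor, rose by 1.75 and 1.55 on the log2 scale (edgeR quasi-likelihood test, Benjamini-Hochberg adjusted p = 7.85e-05 for both). Corticosterone replicate 2 lay closer to the controls on the first principal component than the other treated libraries (-9.17 against -29.6 and -38.5, with controls at 21.5 to 33.8), and values without it are given for the named genes whose call changed. The 8 epithelial markers summed to 1696 to 2003 FPKM (fragments per kilobase of transcript, scaled to the depth of the library) with corticosterone and 1817 to 1939 FPKM in controls. The sums for 8 leukocyte markers were 126.6 to 181.5 FPKM with corticosterone and 129.9 to 142.9 FPKM in controls, most of it from Lyz2. Cd68 averaged 20.6 FPKM with corticosterone and 22.3 FPKM in controls, Itgam 2.5 and 2.4 FPKM, and Csf1r 1.22 FPKM in both. Adgre1 averaged 0.734 FPKM with corticosterone and 0.595 FPKM in controls. Ptprc, the common leukocyte antigen, averaged 0.202 FPKM with corticosterone and 0.198 FPKM in controls. The 8 fibroblast markers summed to 15.6 to 17.0 FPKM with corticosterone and 14.7 to 16.4 FPKM in controls, and the 5 endothelial markers in the table to 0.164 to 0.192 FPKM with corticosterone and 0.260 to 0.350 FPKM in controls, which did not overlap. Pecam1, an endothelial marker, had 36 to 45 counts with corticosterone and 64 to 105 counts in controls (log2 fold change -1.0, adjusted p = 0.106 by edgeR), and Cdh5 had 0 to 4 counts with corticosterone and 9 to 18 counts in controls. Vwf lay the other way, at 75 to 98 counts with corticosterone and 66 to 86 counts in controls (log2 fold change 0.15, adjusted p = 0.758 by edgeR). Kdr and Tek overlapped between the groups, at 0 to 14 and 0 to 12 counts. No marker of these lists passed in edgeR, while DESeq2 called Krt14 lower and Postn higher, and the part of other cell types in the results was not tested.

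With corticosterone 4 of the 9 metalloprotease transcripts fell and 0 rose, by edgeR, DESeq2 and limma alike. The stromelysins Mmp3 and Mmp10, the gelatinase Mmp9 and the collagenase Mmp13 fell by 1.40, 0.99, 0.92 and 0.64 on the log2 scale. The membrane-type enzymes Mmp14 and Mmp15, the furin-activated Mmp11, the gelatinase Mmp2 and Mmp19 did not pass the test. All 9 genes passed the filter on low counts. Of the 17283 genes tested, 1.46% were called lower, 1.35% were called higher and 2.82% changed in either direction (adjusted p under 0.05 over all of them). The median log2 fold change over the 9 genes was -0.35, with 8 below 0, beside a median of 0.0 over all tested genes. These 9 were chosen with earlier results of these data known, so setting them beside all genes is no test of the family. Of 10 other metalloproteases tested, 0 fell, 1 rose and the median log2 fold change was 0.037. In RNA of whole cultures, fewer cells that express a gene and less RNA per cell cannot be told apart.

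The promoters of 3 of the genes that fell are shown because they lie in a single gene cluster and share a match to the AP-1 motif. That of Mmp14, which did not pass, is shown beside them. They are RefSeq windows on mouse build GRCm38.p6, from 250 bases before to 50 bases after the annotated start, written 5′ to 3′ on the gene's strand, which is the plus strand for all 4. Capitals mark matches to the AP-1 motif TGACTCA on either strand (TGAGTCA when read on the other) and to the TATA box motif TATAAA.
Mmp3 (chr9:7445572-7445871): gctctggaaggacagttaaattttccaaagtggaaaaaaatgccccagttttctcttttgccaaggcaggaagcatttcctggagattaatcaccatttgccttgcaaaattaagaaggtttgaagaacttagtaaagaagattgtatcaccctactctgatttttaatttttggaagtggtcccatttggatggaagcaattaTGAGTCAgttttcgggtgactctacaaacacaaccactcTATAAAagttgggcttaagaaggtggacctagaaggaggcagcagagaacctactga
Mmp10 (chr9:7502092-7502391): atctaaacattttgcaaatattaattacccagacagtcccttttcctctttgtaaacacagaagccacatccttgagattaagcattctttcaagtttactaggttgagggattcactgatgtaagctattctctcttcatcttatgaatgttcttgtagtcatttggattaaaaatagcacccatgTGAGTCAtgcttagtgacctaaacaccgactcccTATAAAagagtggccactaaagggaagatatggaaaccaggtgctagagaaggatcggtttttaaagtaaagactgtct
Mmp13 (chr9:7272264-7272563): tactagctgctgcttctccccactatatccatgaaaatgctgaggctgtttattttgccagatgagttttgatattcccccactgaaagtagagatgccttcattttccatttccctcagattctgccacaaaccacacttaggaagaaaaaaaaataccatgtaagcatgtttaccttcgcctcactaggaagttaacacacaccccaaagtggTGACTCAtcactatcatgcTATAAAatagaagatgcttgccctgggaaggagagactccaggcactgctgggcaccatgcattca
Mmp14 (chr14:54431348-54431647): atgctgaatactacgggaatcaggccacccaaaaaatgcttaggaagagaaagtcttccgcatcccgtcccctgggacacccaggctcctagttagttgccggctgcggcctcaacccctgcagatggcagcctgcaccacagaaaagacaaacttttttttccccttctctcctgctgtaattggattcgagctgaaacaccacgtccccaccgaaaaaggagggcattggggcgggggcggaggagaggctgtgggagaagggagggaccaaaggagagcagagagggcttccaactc

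Of the 9 genes, 6 had a window in the RefSeq table, and Mmp2, Mmp9 and Mmp19 had none. The AP-1 motif was found in 3 of these 6, with its first base 46 bases before the annotated start of Mmp3, 63 bases before that of Mmp10 and 35 bases before that of Mmp13. Among all 32851 windows, 5.2% held it. The same 3 windows held TATAAA, which 13.6% of all windows held, and none of the windows of Mmp11, Mmp14 and Mmp15 held either motif. Both motifs were also in windows of the cluster neighbours Mmp1a, Mmp1b and Mmp12 (at its downstream annotated start), which did not pass. The ETS motif AGGAAG, searched on both strands and present in 35.4% of all windows, was in those of Mmp3, Mmp13 and Mmp14. The full palindromic glucocorticoid response element, searched on both strands and held by 3 of all windows (0.00913%), was in 0 of the 6, as was the NF-kappaB consensus (4.51% of all windows). These matches describe the letters in the windows and do not show binding.

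Mmp3 encodes stromelysin-1, which cuts proteoglycans, laminin and fibronectin and opens other metalloprotease proenzymes. It lies on chromosome 9, 7445822 to 7455975, plus strand. Its FPKM was 28.3, 32.5 and 27.2 in corticosterone replicates 1, 2 and 3, against 69.2, 82.4 and 80.1 in control replicates 1, 2 and 3. The highest treated library was thus below the lowest control, and the counts behind these values were 3566 to 4377 with corticosterone and 8929 to 10933 in controls. The mean was 29.3 ± 2.80 FPKM with corticosterone and 77.2 ± 7.04 FPKM in controls (SD, n = 3 each). In the fit over all genes its log2 fold change was -1.40 (SE 0.098, 95% interval -1.62 to -1.18; edgeR quasi-likelihood test, Benjamini-Hochberg adjusted p = 0.00078). Of the 17283 tested genes it had the 7th lowest p and the 78th most negative log2 fold change.

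Mmp10 encodes stromelysin-2, the closest relative of stromelysin-1, at 7502352 to 7510240 on the same strand of chromosome 9. It had 17.2, 17.0 and 15.6 FPKM in corticosterone replicates 1, 2 and 3, against 30.6, 34.2 and 33.4 FPKM in control replicates 1, 2 and 3. The groups did not overlap, and each spread over less than 4 FPKM. Its log2 fold change was -0.99 (SE 0.075, 95% interval -1.16 to -0.81; edgeR quasi-likelihood test, Benjamini-Hochberg adjusted p = 0.000997). Of the 50-base stretches of its annotated transcript, 8.37% also occur in that of Mmp3, and the sources used here do not state how reads matching both were counted.

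Both stromelysins fell, Mmp3 by more. The ratio of their FPKM values, Mmp3 over Mmp10, was 1.65, 1.92 and 1.74 in corticosterone replicates 1, 2 and 3 and 2.27, 2.41 and 2.40 in control replicates 1, 2 and 3. On the log2(FPKM + 1) scale the difference in the ratio was -0.43, with no overlap between the groups (exact permutation test over the 6 libraries, two-sided p = 0.1, the smallest this design allows; adjusted p = 0.15 over the 3 pairs compared). It therefore could not pass at 0.05 whatever its size.

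Mmp11, called stromelysin-3, is activated inside the cell by furin-type proteases and is best known from the fibroblasts around human carcinomas. It lies on the minus strand of chromosome 10, 75923222 to 75936496. Its FPKM was 7.68, 8.99 and 8.25 in corticosterone replicates 1, 2 and 3, against 9.81, 9.95 and 9.10 in control replicates 1, 2 and 3. The groups came close but did not overlap, and corticosterone replicate 2 was nearest to the controls. The log2 fold change of -0.21 did not pass (95% interval -0.41 to -0.016; edgeR quasi-likelihood test, Benjamini-Hochberg adjusted p = 0.263), but it was -0.29 and passed without corticosterone replicate 2 (edgeR quasi-likelihood test, adjusted p = 0.0251). Mmp11 overlaps Chchd10 on the opposite strand, and its counts are uncertain because no label states that counting used the strand.

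**Figure D1:**
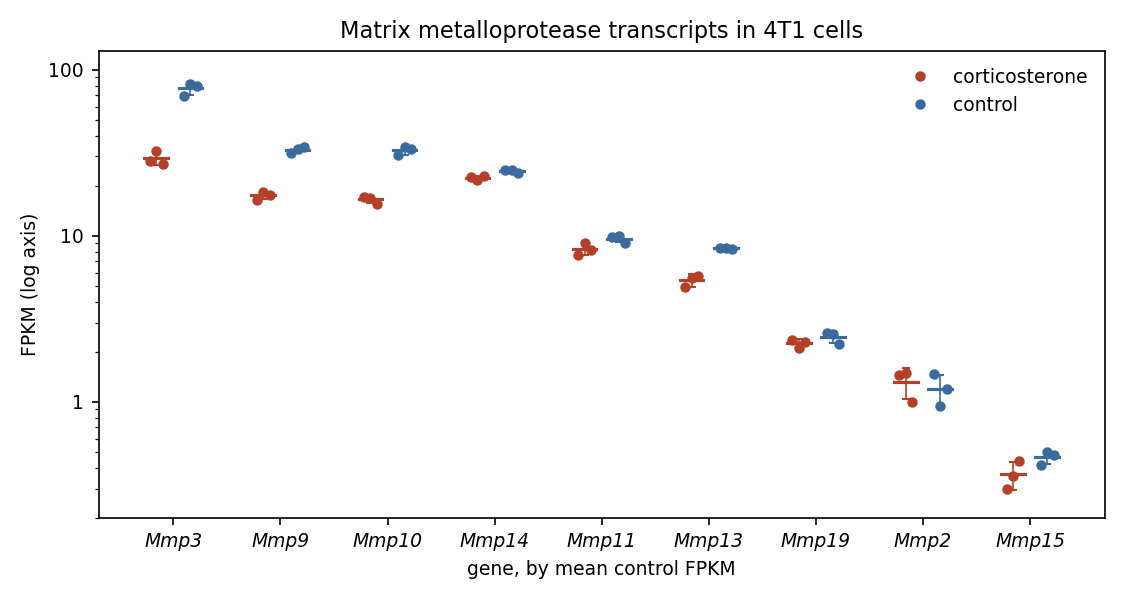
FPKM (log axis) of the 9 metalloprotease genes in each library, with corticosterone libraries in red on the left of each pair and control libraries in blue on the right. Points are libraries, horizontal lines are means and bars are SD (n = 3 per group). Mmp3 was at 27.2 to 32.5 FPKM with corticosterone, below all controls at 69.2 to 82.4 FPKM, while the groups of Mmp2, Mmp15 and Mmp19 overlapped.

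The gelatinases cut denatured collagen and the collagen IV of basement membranes. Mmp9, gelatinase B, lies on chromosome 2, 164940780 to 164955850. It had 16.5, 18.4 and 17.6 FPKM in corticosterone replicates 1, 2 and 3, against 31.6, 33.1 and 34.4 FPKM in control replicates 1, 2 and 3. The highest treated value was far below the lowest control value. Its log2 fold change was -0.92 (SE 0.067, 95% interval -1.08 to -0.77; edgeR quasi-likelihood test, Benjamini-Hochberg adjusted p = 0.00078).

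Mmp2, gelatinase A, which is activated at the cell surface by the Mmp14 protein together with TIMP-2, lies on chromosome 8, 92827291 to 92853420. Its FPKM was 1.45, 1.49 and 0.994 in corticosterone replicates 1, 2 and 3, against 1.46, 0.940 and 1.19 in control replicates 1, 2 and 3. The groups overlapped almost wholly. The log2 fold change of 0.13 did not pass (95% interval -0.36 to 0.62; edgeR quasi-likelihood test, Benjamini-Hochberg adjusted p = 0.8). The data are compatible with any change within that interval, lower or higher. Mmp2 was transcribed at a small share of the level of Mmp9 in both groups, with Mmp9 over Mmp2 at 11.3, 12.3 and 17.8 in the treated libraries and 21.6, 35.2 and 29.0 in the controls. The log2(FPKM + 1) ratio was lower by 0.95 with corticosterone, with no overlap between the groups (two-sided exact permutation p = 0.1, which is the least that 3 against 3 libraries can give; adjusted p = 0.15 over the 3 pairs).

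Mmp13 encodes the interstitial collagenase of rodents, which cuts fibrillar collagen, and lies on chromosome 9, 7272514 to 7283331. Its FPKM was 4.88, 5.58 and 5.74 in corticosterone replicates 1, 2 and 3, against 8.39, 8.49 and 8.26 in control replicates 1, 2 and 3. The controls lay within a narrow band and every treated library was below it. The log2 fold change was -0.64 (SE 0.085, 95% interval -0.83 to -0.44; edgeR quasi-likelihood test, Benjamini-Hochberg adjusted p = 0.00801). Leaving out control replicate 1 or control replicate 2 ended the call (adjusted p = 0.0506 and 0.0752 in edgeR), at log2 fold changes of -0.64 and -0.63.

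Mmp14 and Mmp15 encode membrane-type metalloproteases, which stay anchored in the plasma membrane. Mmp14, on chromosome 14, 54431612 to 54441265, had 22.5, 21.6 and 22.9 FPKM in corticosterone replicates 1, 2 and 3, against 24.9, 25.0 and 23.9 FPKM in control replicates 1, 2 and 3. The groups did not overlap, but the means were close, at 22.3 ± 0.685 FPKM with corticosterone and 24.6 ± 0.600 FPKM in controls (SD, n = 3 each). Its log2 fold change of -0.15 did not pass (95% interval -0.26 to -0.039; edgeR quasi-likelihood test, Benjamini-Hochberg adjusted p = 0.163), although it passed at -0.14 without corticosterone replicate 2 (edgeR quasi-likelihood test, adjusted p = 0.0428). The interval does not reach the log2 fold change of any of the 4 genes that fell.

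Mmp15, on chromosome 8, 95352268 to 95375080, was the least abundant of the 9, with 0.300, 0.357 and 0.438 FPKM in corticosterone replicates 1, 2 and 3, against 0.418, 0.496 and 0.476 FPKM in control replicates 1, 2 and 3. The groups overlapped, at 115 to 173 counts with corticosterone and 163 to 198 counts in controls. The log2 fold change of -0.35 did not pass (95% interval -0.76 to 0.068; edgeR quasi-likelihood test, Benjamini-Hochberg adjusted p = 0.381). The log2(FPKM + 1) ratio of Mmp14 to Mmp15 was 4.10 ± 0.071 with corticosterone and 4.13 ± 0.057 in controls, a difference of -0.034 within the spread of replicates (SD, n = 3 each; exact permutation test, two-sided p = 0.5), and of the opposite sign, at 0.14, with a pseudocount of 0.1.

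Mmp19, a secreted enzyme that cuts basement membrane components, lies on chromosome 10, 128790910 to 128800824. It had 2.37, 2.12 and 2.30 FPKM in corticosterone replicates 1, 2 and 3, against 2.59, 2.57 and 2.22 FPKM in control replicates 1, 2 and 3. The groups overlapped, and the log2 fold change of -0.13 did not pass (95% interval -0.36 to 0.11; edgeR quasi-likelihood test, Benjamini-Hochberg adjusted p = 0.578). Mmp19 overlaps Tmem198b and Gm47093 on the opposite strand.

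**Figure D2:**
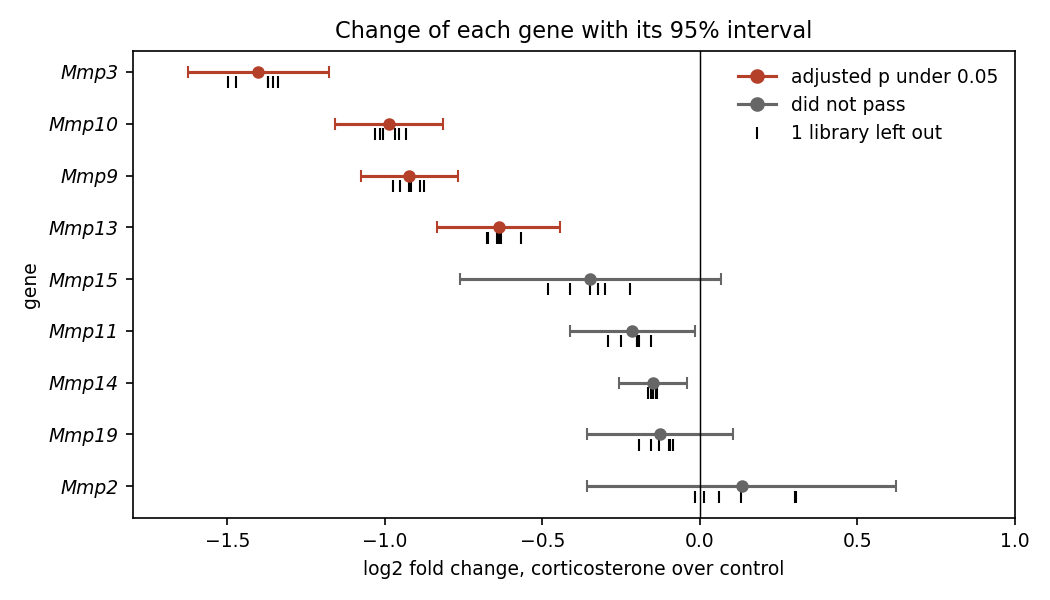
Log2 fold change of each gene, corticosterone over control, from edgeR (points) with its 95% interval (bars). Red marks the 4 genes with an adjusted p under 0.05, grey the other 5, and black ticks the values when 1 library is left out. Mmp3 stayed between -1.50 and -1.34 and Mmp2 between -0.016 and 0.31 in those refits.

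In all, 6 of the 9 genes (Mmp3, Mmp9, Mmp10, Mmp11, Mmp13 and Mmp14) were lower in every treated library than in every control by FPKM, which held for 12.0% of all tested genes. Without corticosterone replicate 2, edgeR called 6 of the 9 genes lower, in a fit that called 1786 of 17862 tested genes lower (10%), against 1.46% with all libraries. The calls of Mmp3, Mmp9 and Mmp10 held without each library in turn, with adjusted p of at most 0.0122, 0.0126 and 0.0147 in those fits (edgeR quasi-likelihood test).

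The order of the transcripts by FPKM, a scale per transcript length, differed in places between the groups. With corticosterone Mmp3 (29.3) was followed by Mmp14 (22.3), Mmp9 (17.5), Mmp10 (16.6), Mmp11 (8.31), Mmp13 (5.40), Mmp19 (2.26), Mmp2 (1.31) and Mmp15 (0.365 FPKM). In controls Mmp3 (77.2) was followed by Mmp9 (33.0), Mmp10 (32.7), Mmp14 (24.6), Mmp11 (9.62), Mmp13 (8.38), Mmp19 (2.46), Mmp2 (1.20) and Mmp15 (0.464 FPKM). Mmp14 stood at rank 2 with corticosterone and rank 4 in controls, and Mmp9 and Mmp10 were the neighbours whose ranges overlapped in both groups.

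The summed FPKM of the 9 genes was 101.2, 107.9 and 101.0 in corticosterone replicates 1, 2 and 3 and 179.0, 197.1 and 193.2 in control replicates 1, 2 and 3. Mmp3 made up 26.9 to 30.1% of this sum with corticosterone and 38.7 to 41.8% in controls. Mmp14 made up 20.0 to 22.7% with corticosterone and 12.4 to 13.9% in controls, although its own level was slightly lower in the treated libraries. Mmp9 kept a similar part in both groups, 16.3 to 17.5% with corticosterone and 16.8 to 17.8% in controls. Without Mmp3 the sum was still 72.9 to 75.4 FPKM with corticosterone and 109.7 to 114.7 FPKM in controls.

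**Figure D3:**
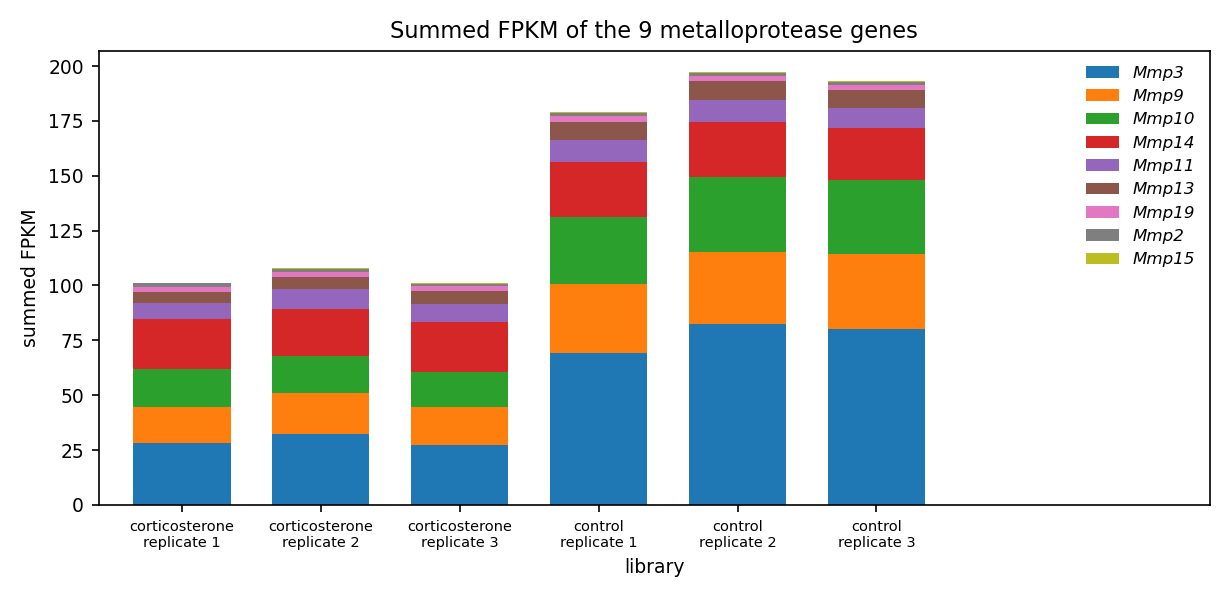
Summed FPKM of the 9 metalloprotease genes in each library, stacked by gene, corticosterone libraries on the left and control libraries on the right. The totals were 101.0 to 107.9 FPKM with corticosterone and 179.0 to 197.1 FPKM in controls, and the lowest block, Mmp3, differed most.

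Mmp3, Mmp10 and Mmp13 belong to the metalloprotease cluster of mouse chromosome 9, of which the table holds 9 genes over 402 kb, in the order Mmp13, Mmp12, Mmp1b, Mmp3, Mmp1a, Mmp10, Mmp8, Mmp27 and Mmp20. The other 6 did not pass or had too few counts to be tested. Mmp12, the macrophage elastase, lies between Mmp13 and Mmp3 and is abundant in these cells. It had 17.4, 17.1 and 19.8 FPKM in corticosterone replicates 1, 2 and 3, against 18.3, 18.1 and 17.9 FPKM in control replicates 1, 2 and 3. The treated libraries lay on both sides of the controls, and the log2 fold change was -0.01 (95% interval -0.15 to 0.13; edgeR quasi-likelihood test, Benjamini-Hochberg adjusted p = 0.956). The interval does not overlap those of Mmp3, Mmp10 and Mmp13. Mmp12 overlaps Mmp1b on the opposite strand.

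The other cluster genes were expressed at low levels. Mmp8, the neutrophil collagenase, averaged 2.94 ± 0.162 FPKM with corticosterone and 3.27 ± 0.323 FPKM in controls (log2 fold change -0.16, edgeR quasi-likelihood test, adjusted p = 0.5). Mmp1b had 0.795, 0.624 and 0.761 FPKM with corticosterone, all below the 0.972, 1.33 and 1.04 FPKM of the controls. Its log2 fold change of -0.62 did not pass at 68 to 142 counts per library (edgeR quasi-likelihood test, adjusted p = 0.177). Mmp1a (-0.33, adjusted p = 0.577 in the same test; -0.53 without control replicate 1 and -0.10 without control replicate 3) overlapped between groups, and the counts of these 2 related genes are uncertain because 8.15% of the 50-base stretches of Mmp1a transcripts also occur in Mmp1b. Mmp27 had 0 to 26 counts and Mmp20 0 to 4 counts per library. The promoter windows of Mmp1a and Mmp1b also held the AP-1 motif, 73 and 93 bases before the start, and so did that of the downstream of 2 annotated starts of Mmp12, 44 bases before it. TATAAA, searched on both strands, was in these windows too and in those of Mmp8 and Mmp20.

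**Figure D4:**
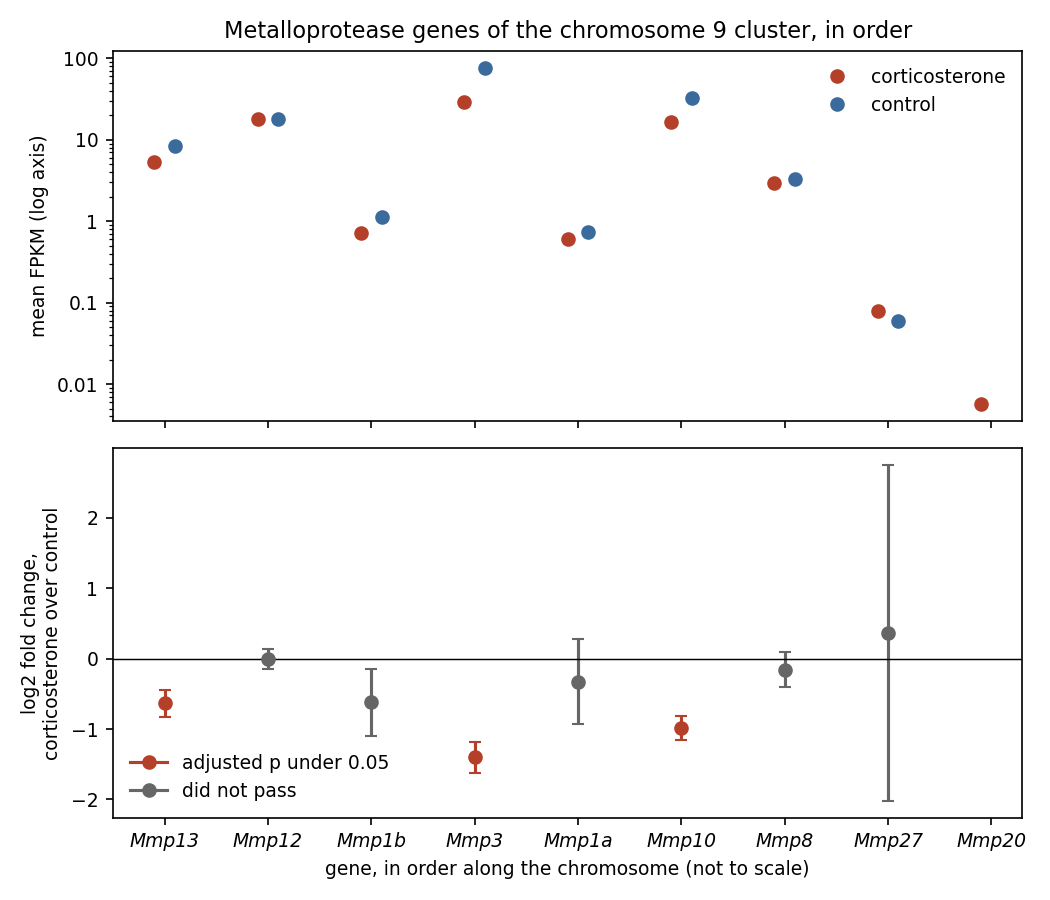
The 9 metalloprotease genes of the chromosome 9 cluster in order along the chromosome (positions not to scale). Upper panel, mean FPKM (log axis, n = 3 libraries per group) with corticosterone in red on the left and control in blue on the right, and no control point for Mmp20, which was at 0. Lower panel, log2 fold change with its 95% interval for the 8 tested genes. Mmp13, Mmp3 and Mmp10 (red) were below 0, at -0.64, -1.40 and -0.99, while Mmp12, between the first 2, was at -0.01.

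Outside the 9 genes, 13 of 14 other mouse metalloproteases listed were in the table and 10 were tested. Of these 0 fell and 1, Mmp16, rose (edgeR quasi-likelihood test), and their median log2 fold change was 0.037. In edgeR 2 had an unadjusted p under 0.05, beside 17% of all tested genes, and DESeq2 called 0. Mmp16, a membrane-type enzyme, had 10, 15 and 18 counts in the treated libraries and 0 in all controls. With 3 counts put over the control group the fold is 14.5, which leaves out counting error in the treated libraries. Its call was lost without control replicates 1, 2 or 3 and without corticosterone replicates 1 or 3 (edgeR quasi-likelihood test, adjusted p of 0.115 to 0.161). Mmp16 passed the filter on low counts only through the treated libraries, and edgeR without that filter did not call it (quasi-likelihood test, adjusted p = 0.0936). By limma on log2(FPKM + 1) without a filter it did not pass either (adjusted p = 0.258).

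None of the 4 inhibitor genes in the table passed in edgeR or DESeq2. In edgeR 2 of them had an unadjusted p under 0.05, both with lower values with corticosterone, beside 17% of all tested genes at that unadjusted p. Timp1 averaged 40.7 ± 2.42 FPKM with corticosterone and 48.1 ± 2.03 FPKM in controls (log2 fold change -0.24, edgeR quasi-likelihood test, adjusted p = 0.15, and 0.00873 without corticosterone replicate 2). The fit without that library called 10% of all tested genes lower, against 1.46% with all libraries. Timp2, the most abundant inhibitor, averaged 119.3 ± 6.15 FPKM with corticosterone and 130.5 ± 7.35 FPKM in controls (log2 fold change -0.14, edgeR quasi-likelihood test, adjusted p = 0.284). The summed FPKM of the TIMP genes over that of the 9 metalloproteases was 1.59, 1.45 and 1.63 in corticosterone replicates 1, 2 and 3, against 1.04, 0.875 and 0.917 in control replicates 1, 2 and 3. This ratio leaves out the other metalloproteases. Among those, Mmp12 was at 17.1 to 19.8 FPKM with corticosterone and 17.9 to 18.3 FPKM in controls. Timp1 overlaps Syn1 on the opposite strand and Timp2 overlaps Cep295nl on its own strand.

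Of 7 tested genes that activate proenzymes, 2 fell, 1 rose and 4 did not pass, with a median log2 fold change of -0.13. Plg, which encodes the precursor of plasmin, was listed but was not in the table. Plau, the urokinase that makes plasmin, an opener of metalloprotease proenzymes, had 101.9, 97.8 and 100.7 FPKM in corticosterone replicates 1, 2 and 3, against 133.6, 145.7 and 140.6 FPKM in control replicates 1, 2 and 3. Its log2 fold change was -0.49 (edgeR quasi-likelihood test, adjusted p = 0.00317), and that of its receptor Plaur was -0.28 (adjusted p = 0.0265). Plat, the tissue plasminogen activator, averaged 3.91 ± 0.158 FPKM with corticosterone and 2.29 ± 0.204 FPKM in controls (log2 fold change 0.77, edgeR quasi-likelihood test, adjusted p = 0.00373). The calls of Plau and Plat held when any 1 library was left out, whereas that of Plaur was lost without every library but corticosterone replicate 2 (edgeR quasi-likelihood test, adjusted p up to 0.173). With no filter on low counts edgeR did not call Plaur (adjusted p = 0.0523).

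Of 9 tested AP-1 genes, 2 rose, 0 fell and 7 did not pass, with a median log2 fold change of 0.011. Fosl1, a FOS family member, averaged 54.0 ± 3.86 FPKM with corticosterone and 42.5 ± 1.26 FPKM in controls (log2 fold change 0.34, edgeR quasi-likelihood test, adjusted p = 0.0454). Atf3, which pairs with JUN proteins, averaged 37.2 ± 0.385 FPKM with corticosterone and 27.4 ± 2.06 FPKM in controls (log2 fold change 0.43, edgeR quasi-likelihood test, adjusted p = 0.0159). Both calls were lost without any of the controls and without corticosterone replicate 1 (edgeR quasi-likelihood test, adjusted p up to 0.216 and 0.0855), and both genes overlap another gene on the opposite strand. With no filter on low counts edgeR called neither Fosl1 (adjusted p = 0.115) nor Atf3 (0.0509). None of 7 ETS factors passed in edgeR, with 3 at an unadjusted p under 0.05, beside 17% of all tested genes. Elk3 (-0.20) and Etv4 (-0.17) were the most abundant of them, and Elk3 passed with DESeq2 (adjusted p = 0.00797), which also called Etv5 higher, and with limma on log2(FPKM + 1) (adjusted p = 0.0475). Without corticosterone replicate 2, edgeR called both lower, Elk3 at -0.22 (adjusted p = 0.00545) and Etv4 at -0.26 (adjusted p = 0.00986). That fit called 3670 of 17862 tested genes changed, against 487 of 17283 with all libraries. None of 8 partners at the surface or in complexes passed in edgeR, with 4 at an unadjusted p under 0.05, beside the same 17%. DESeq2 called 1 of them, Cd44. Bsg, the inducer known as EMMPRIN, had a log2 fold change of -0.063 and Cd44, which docks Mmp9 at the surface, one of 0.31 (edgeR quasi-likelihood test, adjusted p = 0.183, and 0.0391 with DESeq2). In the same fit without corticosterone replicate 2, edgeR called Bsg lower at -0.17 (adjusted p = 0.0438) and Cd44 higher at 0.42 (adjusted p = 0.00257).

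The transcripts whose profile over the 6 libraries lay nearest to that of Mmp3, by Euclidean distance between centred log2 CPM values among 7438 other genes with a mean of at least 5 FPKM, were Slpi (0.29), Tslp (0.35) and Mmp10 (0.54). Mmp9 stood at rank 4 (0.62) and Mmp13 stood at rank 28 (0.98), while Mmp11 and Mmp14 stood at ranks 677 and 1445. Slpi, a secreted inhibitor of serine proteases, had 5.44, 6.42 and 6.35 FPKM in corticosterone replicates 1, 2 and 3, against 15.6, 15.9 and 15.4 FPKM in control replicates 1, 2 and 3. All of these distances rest on the same 6 libraries and mostly reflect the difference between the groups.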

How the data were processed

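The members and gene lists were chosen with earlier results of these data known. Per the file headers, the authors deposited for each gene a count in every library, which is a whole number, and an FPKM value, scaled to transcript length and library depth. The labels' protocols name a Qiagen kit as well as TRIzol for the RNA. No aligner, counter or strand setting is stated in the sources used here. The submitters' processing notes name GRCh38, but all 28154 identifiers are mouse ones. In GENCODE M21 (mouse GRCm38) 28086 were found, 90.4% with identical coordinates, as were 8 of the 9 members. Coordinates are the table's.

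Counts were filtered with filterByExpr (minimum count 10, total 15), scaled by TMM and tested with edgeR 4.0.16 (R 4.3.3), group as the only factor, Benjamini-Hochberg over 17283 genes. Only the edgeR and limma steps were run on simulated counts, with the same dispersion for all genes and no outlying library. The outcome is not reported here. Named genes were the 9 members, list genes that passed (else the 2 most abundant), cluster neighbours and Timp3 chosen after their values were seen, Per1, Tsc22d3 and the 3 nearest profiles; 1 listed gene that passed is not reported here. Alternatives were DESeq2 1.42.0, its size factors, other filters, limma 3.58.1 on log2(FPKM + 1) or log2(FPKM + 0.1), the replicate block and each library left out. Libraries held 62175495 to 66249288 counts, and the precision of the tests rests on the scatter among 3 libraries per group. The floor of 3 counts covers only counting error in the controls.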

Additional observations from a re-analysis of the deposited data

How the results depend on the processing

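The number of the 9 genes changed was 4 with all 8 alternatives that kept every library and 3 to 6 when 1 library was left out. The calls of Mmp3, Mmp9 and Mmp10 held in all 14 alternatives, with log2 fold changes of -1.50 to -1.34, -0.97 to -0.88 and -1.03 to -0.93. Over all tested genes the count of 487 was 1131 with DESeq2, 211 with no filter on low counts, 260 with limma on log2(FPKM + 1) and no filter, 237 with the replicate block and 88 to 3670 when 1 library was left out (88 without control replicate 2, 3670 without corticosterone replicate 2). Leaving out a library also leaves fewer samples for the test, and beyond that the cause was not tested. Same-numbered libraries hardly deviated together (correlations of 0.011, 0.038 and -0.088), and the numbers were not taken as a pairing. The replicate block kept the calls of Mmp3, Mmp9, Mmp10 and Mmp13 but ended those of Mmp16 (edgeR adjusted p = 0.139), Plaur (0.109), Fosl1 (0.112), Tnc (0.123), Nid1 (0.0502) and Sparc (0.0884). Ratios changed by -0.49 to -0.38 for Mmp3 to Mmp10, -1.07 to -0.87 for Mmp9 to Mmp2 and -0.075 to -0.004 for Mmp14 to Mmp15 when 1 library was left out, and the last was 0.14 with a pseudocount of 0.1. With 1 library left out, log2 fold changes near 0 changed sign for Mmp2 (-0.016 to 0.307, negative without control replicate 2), Bsg (-0.167 to 0.001, positive without corticosterone replicate 3) and Mmp12 (-0.069 to 0.023, with 0.023 and 0.016 without corticosterone replicates 1 and 2 and 0.0 without control replicate 1).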

Other observations

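Among 16 listed substrates of these enzymes, all tested, 3 rose, 4 fell and 9 did not pass, with a median log2 fold change of -0.009. Lama3 and Lamb3, laminin chains of the basement membrane, rose by 1.15 and 0.51 on the log2 scale (edgeR quasi-likelihood test, adjusted p = 0.00286 and 0.00373). Lama3 averaged 11.5 ± 1.56 FPKM with corticosterone and 5.16 ± 0.762 FPKM in controls (SD, n = 3 each). Spp1, osteopontin, averaged 309.7 ± 4.31 FPKM with corticosterone and 509.7 ± 21.2 FPKM in controls (log2 fold change -0.72, edgeR quasi-likelihood test, adjusted p = 0.00078), while Nid1 (-0.95), Tnc (-0.35) and Sparc (-0.33) also fell. The calls of Lama3, Lamb3 and Spp1 held without each library in turn. Those of Nid1 and Tnc were lost without any library but corticosterone replicate 2, and that of Sparc without any control or corticosterone replicate 1 (edgeR quasi-likelihood test, adjusted p up to 0.222). With no filter on low counts edgeR no longer called Nid1 (adjusted p = 0.109), Tnc (0.0768) or Sparc (0.0676), and limma on log2(FPKM + 1) did not call Tnc (adjusted p = 0.0758). Lama3, Lamb3, Tnc and Nid1 overlap genes on the opposite strand.

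The log2 fold change of Timp3 was 0.83 and missed the threshold (adjusted p = 0.474 by edgeR). The gene stood at 349, 348 and 331 counts in corticosterone replicates 1, 2 and 3 and at 72, 107 and 402 counts in control replicates 1, 2 and 3, so that 1 control lay above all treated libraries and the other 2 far below.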
